A study of Mus musculus with 6 samples.

Results

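Matrix metalloproteinases and their relatives were followed in endothelial cells (EC) sorted from mouse glioma and from normal mouse brain. The genes are all rows whose symbol belongs to the matrix metalloproteinases (MMP), the ADAM and ADAMTS proteases, the ADAMTS-like proteins (ADAMTSL) or the tissue inhibitors of metalloproteinases (TIMP). They were chosen by symbol alone and number 84 of the 24421 genes listed for each library: 23 MMP, 33 ADAM, 19 ADAMTS, 5 ADAMTSL and 4 TIMP genes. The glioma group holds 3 libraries of sorted EC from tumors grown for 3 weeks after orthotopic injection, in C57BL/6 mice. GL26l glioma cells had been placed in the brain, per the design text, so the tumor is a transplanted cell line and not one that arose in the animal. The normal group holds 3 libraries of EC from normal brain of the same strain. No treatment, age or sex enters the comparison, and the design text speaks of independent RNA sets without naming animals, so the spread behind each p-value may be in part technical.

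MMPs are zinc-dependent enzymes that cut collagens, laminins and other matrix proteins, and most are secreted as inactive precursors that another protease must open. Membrane-type MMPs stay on the cell surface, ADAMs shed membrane proteins such as growth factor precursors and Notch, and ADAMTS enzymes cut proteoglycans, procollagens and von Willebrand factor. ADAMTS-like proteins lack the protease domain, and TIMPs block the active site. In growing vessels these enzymes open the basement membrane ahead of endothelial sprouts, while in the brain basement membrane breakdown accompanies barrier leakage.

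The libraries were made with QuantSeq, which reads the 3′ end of polyadenylated RNA, so levels are not divided by gene length. Values were deposited as log2 and appear quantile-normalized, so read depth is unknown, and a gene without signal is listed at 0. The lowest value above 0 was 0.42, 3.82 and 5.22 in glioma replicates 1, 2 and 3, and 7.43, 2.84 and 0.22 in normal replicates 1, 2 and 3. Normal replicate 1 had only 7446 genes above 0, against 10013 to 13108 in the other 5 libraries. Over the 5880 genes above 0 in all libraries, it correlated at a Pearson r of 0.58 and 0.60 with normal replicates 2 and 3, which correlated at 0.97 with each other. Glioma libraries correlated with each other at 0.54 to 0.75, and normal replicate 1 with them at 0.56 to 0.67. By r, the close pair of normal replicates 2 and 3 thus stands out, rather than normal replicate 1. Because normal replicate 1 had few genes above 0, results are given with and without it. Without it the normal group is only that close pair. The SE and p-values of that fit may then understate the spread between independent samples. Header numbers that look like dates are shared by glioma replicates 2 and 3 and by normal replicates 2 and 3, and none is shared across groups, so such a batch and the group cannot be told apart.

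All 15 endothelial markers were above 0 in every library. Their summed level was 15241, 25569 and 17135 parts in 1000000 of the library's summed back-transformed values (ppm) in glioma replicates 1, 2 and 3, and 28558, 34054.5 and 33876 in normal replicates 1, 2 and 3. Transcripts of other cells were present too. Fibroblast markers were above 0 for 11, 4 and 1 of 12 in glioma replicates 1, 2 and 3, and for 4, 4 and 6 in the normal libraries. Microglia and macrophage markers were above 0 for 16, 4 and 15 of 19 in the glioma libraries and for 6, 8 and 10 in the normal libraries, and their summed level was 1968 ppm in glioma replicate 3 against 17.8 to 241.9 elsewhere. Pericyte and smooth muscle markers were above 0 for 10 to 13 of 13 in each library. Granulocyte markers were above 0 for 7 of 9 in glioma replicate 1 and for at most 2 elsewhere, and neuronal markers for 8, 2 and 3 of 9 in glioma and 3, 9 and 9 in normal libraries. Glioma or neural progenitor markers were above 0 for 8, 7 and 6 of 8 in glioma and for 5, 2 and 5 in normal libraries. Astrocyte markers stood above 0 for 4 to 6 of 8 in glioma and 4 to 7 in normal libraries, oligodendrocyte markers for 1 to 6 and 1 to 7 of 9, T and NK cell markers for at most 1 of 9, and choroid plexus markers for 1 to 2 and 0 to 4 of 6. The part of these cells in the results below was not tested.

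Of the 84 genes, 51 were above 0 in at least 1 library, 11 were above 0 in all 6, and 33 were listed at 0 throughout. These are 60.7%, 13.1% and 39.3% of the family genes, against 64.0%, 24.1% and 36.0% of all 24421 genes. The ADAM genes known mainly from testis or epididymis made up most of the silent ones, with 18 of 21 listed at 0 in all libraries. To be tested, a gene had to reach 1 after back-transformation in 3 or more libraries, which 30 of the 84 genes did (35.7%, against 48.6% of all genes): 6 of 23 MMP, 11 of 33 ADAM, 7 of 19 ADAMTS, 2 of 5 ADAMTSL and 4 of 4 TIMP genes. A gene can pass this filter through the group where it is high, so the 30 do not stand for the 84. Of those 30, 6, 8 and 8 were listed at 0 in glioma replicates 1, 2 and 3, and 17, 1 and 1 in normal replicates 1, 2 and 3.

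**Figure D1:**
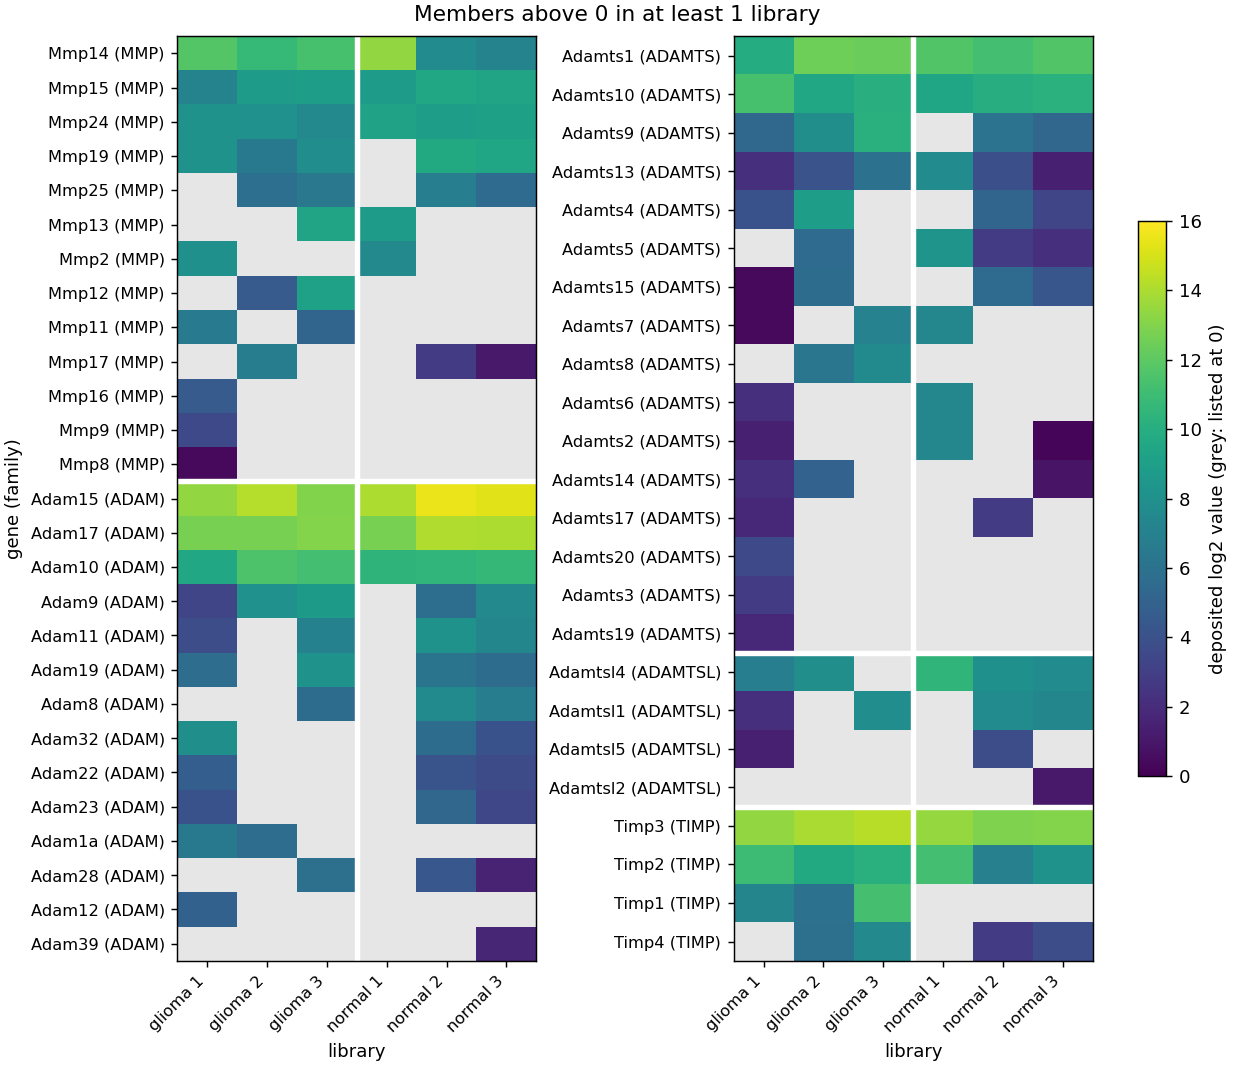
Deposited log2 value of the 51 genes above 0 in at least 1 library (rows, by family and mean level) in the 3 glioma and 3 normal libraries (columns), with genes listed at 0 in grey. Only 11 rows are coloured in all 6 columns, led by Adam15, Timp3 and Adam17.

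No gene of these families passed the test between glioma and normal EC. With limma and Benjamini-Hochberg adjustment over 11862 genes, 0 of the 30 genes had an adjusted p under 0.05 in either direction, where the share of all genes was 0.0%. The smallest adjusted p of any gene was 0.875. At an unadjusted p under 0.05 there were 2, Timp1 among higher genes (2.35% of all genes were higher at that level) and Adam15 among lower genes (1.94%). Just 1 of the 30, Timp1, had its 3 glioma values higher than each of its 3 normal values, against 6.91% of all genes tested. Its counterpart with every glioma value lower was also 1 of the 30, Mmp24, against 6.37% of all genes. Timp1 passed the filter through glioma libraries alone, so its order was fixed once it was tested. Setting normal replicate 1 aside gave 4 above and 7 below, against 14.7% and 20.7% of all genes. Without glioma replicate 1 they were 7 above and 1 below, against 15.0% and 12.1%. Over the 11 genes above 0 throughout, the counts were 0 above and 1 below, against 5.05% and 8.62%, and with values raised to 7.43 in every library they were 0 and 1 of 24, against 4.75% and 5.79%. The median difference, glioma minus normal on the log2 scale, was 0.43 over the tested MMP genes, -0.80 over ADAM, 0.07 over ADAMTS, -2.74 over ADAMTSL and 1.89 over TIMP genes, against 0.05 over all genes tested. Without normal replicate 1 the medians were -1.10, -1.89, 0.14, -3.57 and 1.95, against -0.35 over all genes. In bulk samples such as these, fewer cells that express a gene and less RNA of it per cell cannot be told apart.

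**Figure D2:**
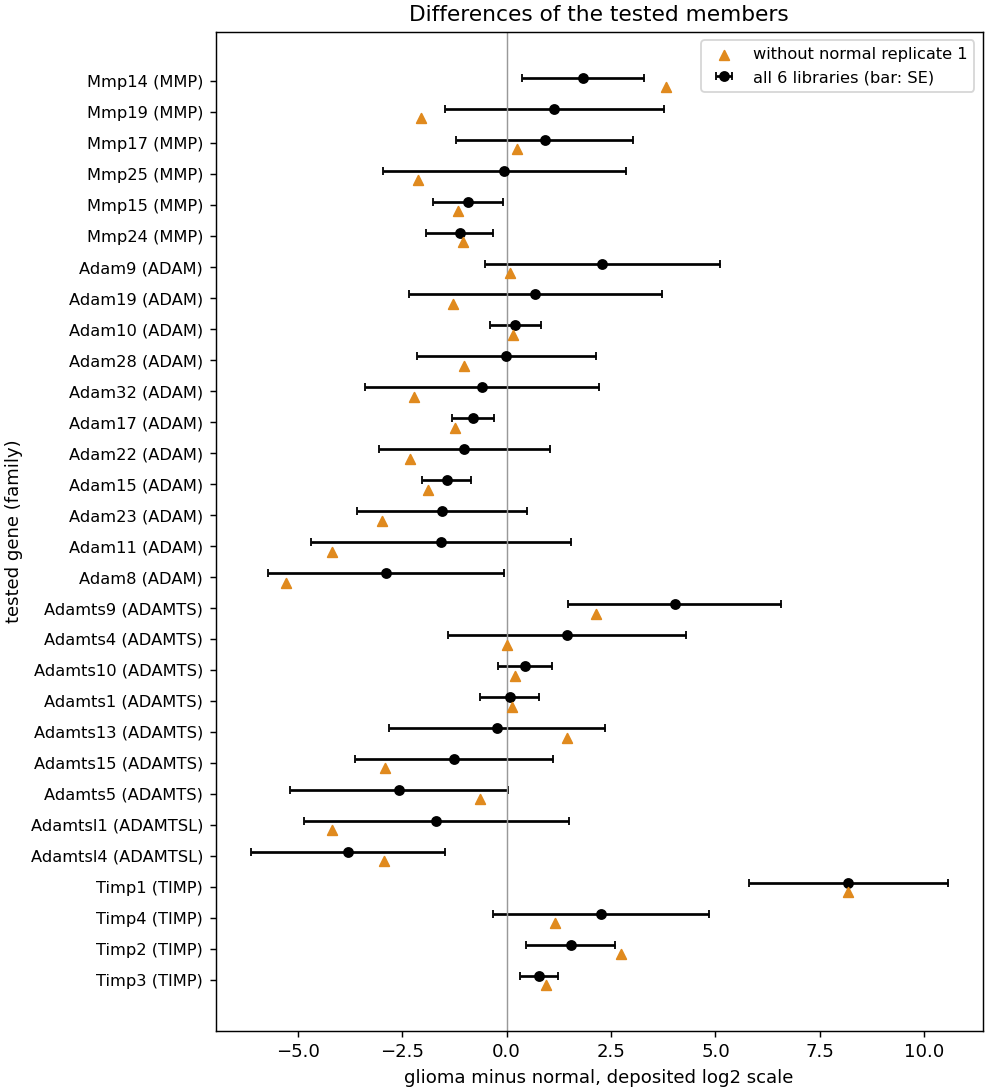
Difference, glioma minus normal on the deposited log2 scale, of the 30 tested genes, with black circles for all 6 libraries (bars: SE of the limma fit) and orange triangles for the fit without normal replicate 1. Timp1 lies farthest to the right, but its place has no readable size because the normal libraries are listed at 0, and Mmp19, Adam19 and Adamts13 change sign without normal replicate 1.

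The 4 inhibitors each had a positive difference, as did 6097 of the 11862 genes tested. With values raised to 7.43 in every library, the differences were 1.29 for Timp1, 1.38 for Timp2, 0.77 for Timp3 and 0.03 for Timp4. Timp1 was the only 1 of the 4 with signal in the glioma libraries alone. Timp1 encodes a secreted inhibitor of most soluble MMPs that is induced in inflamed and remodelling tissue (chromosome X, 20870166 to 20874735, mouse build GRCm38). It stood at 7.26, 5.97 and 11.30 in glioma replicates 1, 2 and 3, and was listed at 0 in all 3 normal libraries. The values of glioma replicates 1 and 2 lay below 7.43, the lowest value above 0 that normal replicate 1 holds, so a level of that size could not be told from 0 in that library. In normal replicates 2 and 3 values as low as 2.84 and 0.22 occur, and there Timp1 was still at 0. The limma adjusted p was 0.875 (unadjusted p = 0.00799). Timp1 passed the filter through glioma libraries alone, so its groups could not overlap once it was tested. Normal values all at 0 have no spread, so the unadjusted p is not read as support. Glioma replicate 3, with the highest Timp1 value, also had the highest microglia and macrophage sum. That sum was 77.5, 57.0 and 1968 ppm in glioma replicates 1, 2 and 3. In normal replicates 1, 2 and 3, where Timp1 was at 0, it was 241.9, 20.9 and 17.8 ppm. Whether Timp1 follows this sum was not tested. Timp1 lies within Syn1, a synaptic vesicle gene on the opposite strand, with no shared exon bases. Syn1 ran otherwise, at 7.59, 0 and 6.12 in glioma and 0, 9.48 and 9.08 in normal libraries.

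Timp3 was the most abundant inhibitor. It encodes a matrix-bound inhibitor that also blocks ADAM17 and several ADAMTS enzymes (chromosome 10, 86300372 to 86349506). It stood at 13.41, 13.98 and 14.30 in glioma and at 13.49, 12.90 and 13.00 in normal replicates 1, 2 and 3. These values put it above 97.2% or more of the genes with signal in every library. The means were 13.90 ± 0.45 in glioma and 13.13 ± 0.32 in normal libraries (SD, n = 3 each), a difference of 0.77 (SE 0.46, limma adjusted p = 0.875). Normal replicate 1 lay just above the lowest glioma library, so the groups overlapped. The summed pericyte and smooth muscle level was 611, 883 and 1124 ppm in glioma and 1300.2, 426 and 534 in normal replicates 1, 2 and 3. Timp3 lies inside Syn3 on the opposite strand with shared exon bases, and its back-transformed value was 21.1 to 792.1 times that of Syn3 where both were above 0.

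Timp2, which inhibits MMPs and also bridges pro-MMP2 to MMP14 at the cell surface, stood at 10.95, 9.74 and 10.18 in glioma libraries. In normal replicates 1, 2 and 3 it was at 11.19, 6.97 and 8.13. The means were 10.29 ± 0.61 and 8.76 ± 2.18 (SD, n = 3 each), with a difference of 1.53 (SE 1.06, limma adjusted p = 0.875). Normal replicate 1 was thus above every glioma library and the other normal libraries below every one of them. Without normal replicate 1 the difference was 2.74 (SE 0.66, limma adjusted p = 0.393). Timp4, an inhibitor with a narrow tissue range, was at 0, 5.89 and 7.52 in glioma and 0, 2.84 and 3.79 in normal libraries, and 2.84 is the lowest value above 0 in normal replicate 2. Timp4 shares 90 exon bases with Syn2 on the opposite strand, which stood at 0, 5.25 and 0 in glioma and 8.23, 4.26 and 3.25 in normal libraries. Summed over the family, the TIMP level was 765, 1009.9 and 1417 ppm in glioma and 827, 458 and 497 in normal replicates 1, 2 and 3.

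**Figure D3:**
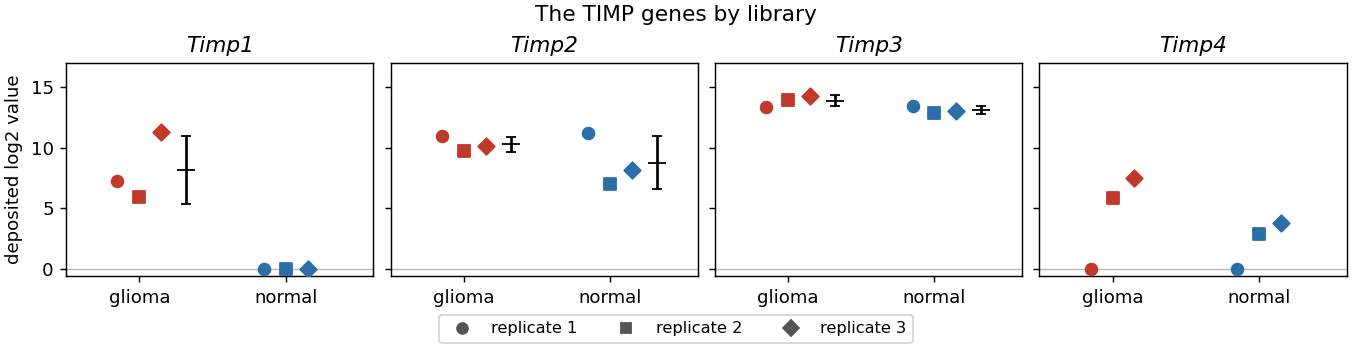
Deposited log2 value of each TIMP gene by library (circles, squares and diamonds for replicates 1, 2 and 3; glioma red, normal blue), with black bars for mean and SD where all 3 libraries are above 0. Timp1 is listed at 0 in the 3 normal libraries, and the normal replicate 1 point of Timp2 at 11.19 lies above all glioma points.

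Membrane-type enzymes carried most of the MMP signal, and all 6 of them were above 0 in at least 1 library. Mmp14, which cuts fibrillar collagen and activates pro-MMP2 (chromosome 14, 54431612 to 54445364), was the highest MMP by its mean over the 6 libraries. It stood at 11.71, 10.70 and 11.35 in glioma and at 13.40, 7.74 and 7.14 in normal replicates 1, 2 and 3. Normal replicate 1 again exceeded every glioma library, while the other normal libraries were below all of them. Its means were 11.26 ± 0.51 and 9.43 ± 3.45 (SD, n = 3 each), a difference of 1.83 (SE 1.45, limma adjusted p = 0.875). Without normal replicate 1 the difference was 3.81 (SE 0.54, unadjusted p = 0.000279, limma adjusted p = 0.367), still short of the threshold. That fit treats the closely alike normal replicates 2 and 3 as independent. With normal replicate 1 kept and the other normal libraries averaged as 1 sample, the difference was 0.83. With normal replicate 1 set aside, glioma libraries lay wholly above normal libraries for both Mmp14 and Timp2, the pair that acts on pro-MMP2. The same held for 4 of the 30 tested genes of the families and for 14.7% of all genes tested. The shared order is therefore not read as particular to the pair. Mmp2 itself, the gelatinase that the pair activates, was above 0 only in glioma replicate 1 at 8.06 and normal replicate 1 at 7.54. The 7.54 is near 7.43, the lowest value above 0 in that library, and exceeded 3.4% of its genes with signal. Glioma replicate 1 and normal replicate 1 are the 2 libraries with the highest fibroblast sums, 284 and 176 ppm against 3.0 to 41.3 elsewhere. Mmp14 was highest in the same libraries, at 13.40 in normal replicate 1 and 11.71 in glioma replicate 1. Next came glioma replicate 3 at 11.35, a library with 11 of 12 fibroblast markers at 0. Whether Mmp14 follows the fibroblast level was not tested.

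In normal replicates 2 and 3 Mmp19, at 9.69 and 9.45, and also Mmp15 and Mmp24 stood above Mmp14, whose mean is raised by normal replicate 1. Mmp19 and Mmp24 overlap other genes at their 3′ ends, as given below. Mmp15, a close relative of Mmp14, stood at 7.16, 8.79 and 8.92 in glioma and at 8.76, 9.53 and 9.36 in normal libraries, with means of 8.29 ± 0.98 and 9.22 ± 0.40 (SD, n = 3 each). Its difference of -0.93 (SE 0.84, limma adjusted p = 0.875) did not pass the threshold. Mmp17 and Mmp25, which are held by a lipid anchor, were above 0 in 3 and 4 libraries, at up to 6.70 and 6.82. Mmp16 was at 4.60 in glioma replicate 1 alone.

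Mmp24, known from neurons (chromosome 2, 155775342 to 155818366), was the only gene of the families with all glioma libraries below all normal libraries. It stood at 8.23, 8.09 and 7.55 in glioma and at 9.23, 8.93 and 9.08 in normal libraries, with means of 7.96 ± 0.36 and 9.08 ± 0.15 (SD, n = 3 each). The difference was -1.12 (SE 0.80, limma adjusted p = 0.875), and -1.05 without normal replicate 1. The value cannot be assigned to Mmp24 with certainty. Its last exon shares 637 bases (155817730 to 155818366) with the last exon of BC029722 on the opposite strand, so the 3′ ends that QuantSeq reads overlap. BC029722 stood at 8.11, 8.09 and 7.55 in glioma and at 9.23, 8.93 and 9.10 in normal libraries, and the ratio of Mmp24 to BC029722, back-transformed, was 0.99 to 1.09 in the 6 libraries.

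Mmp19, a secreted MMP that cuts basement membrane proteins, showed the same kind of pair. Mmp19 was at 8.22, 6.48 and 7.86 in glioma and at 0, 9.69 and 9.45 in normal replicates 1, 2 and 3. Its 3′ end shares 789 exon bases (chromosome 10, 128800036 to 128800824) with Tmem198b on the opposite strand. Tmem198b was at 7.07, 5.47 and 7.02 in glioma and at 0, 8.69 and 8.44 in normal libraries. The back-transformed ratio of Mmp19 to Tmem198b lay between 1.80 and 2.23 in the 5 libraries with signal. How reads in such overlaps were assigned, and whether strand was used, is not given in the sources used here. Mmp19 lay below both normal replicates 2 and 3 in every glioma library, and its difference was -2.05 (SE 0.82, limma adjusted p = 0.48) without normal replicate 1. Among the other pairs, Adam17 and Iah1 overlap at their 3′ ends as well, but Adam17 was at least 23.2 times as high where both had signal.

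**Figure D4:**
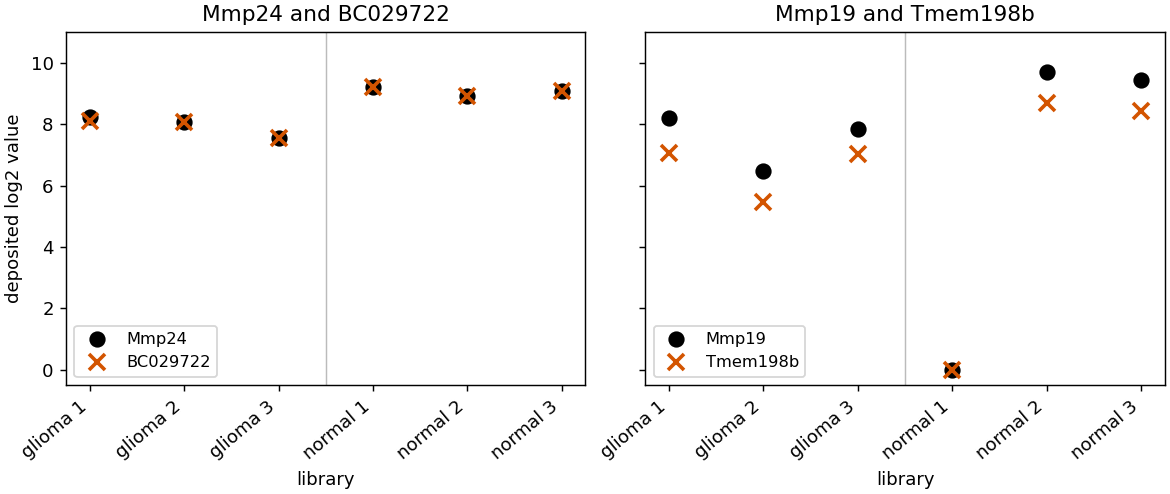
Deposited log2 values of Mmp24 and Mmp19 (black circles) and of the genes that overlap their 3′ ends on the opposite strand (orange crosses) in each library. BC029722 coincides with Mmp24 in all 6 libraries, and Tmem198b follows Mmp19 about 1 log2 unit lower where both are above 0.

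The remaining secreted MMPs were rarely seen. Mmp9, the gelatinase of neutrophils and activated macrophages, was at 3.56 in glioma replicate 1 and at 0 in the other 5 libraries. Mmp12, the macrophage elastase, was at 0, 4.59 and 9.18 in glioma libraries and at 0 in the normal libraries. Mmp13, a collagenase, was at 9.32 in glioma replicate 3 and at 8.82 in normal replicate 1, with 0 elsewhere. Both Mmp12 and Mmp13 were highest in glioma replicate 3, the library with the highest microglia and macrophage sum. Mmp11, known from stromal cells, was at 6.65, 0 and 5.22 in glioma and at 0 in normal libraries. The 5.22 is the lowest value above 0 in glioma replicate 3. Across all 84 genes, 12 were above 0 in glioma libraries only and 2 in normal libraries only, which is 23.5% and 3.92% of the 51 with signal, against 11.5% and 7.31% of all genes with signal. Of those 12, 7 were above 0 in glioma replicate 1 alone, at 0.42 to 4.97, which is 58.3% of them, against 57.6% of all genes with signal in glioma libraries only.

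Mmp12 and Mmp13 belong to a run of 10 MMP genes on chromosome 9 (7272514 to 7699585), of which only these and Mmp8 had any signal. The RefSeq promoter windows of the run (build GRCm38.p6, 250 bases before to 50 after a start) hold AP-1 letters, TGAGTCA on either strand, for 7 of the 10 genes. Of all 32544 windows, 5.19% hold these letters, and of the 58 windows that belong to 53 of the 84 genes, 17.2%. The windows of Mmp13 and Mmp12 are shown beside those of Timp1 and Mmp14 because their exact matches differ in kind. Timp1 is the inhibitor seen in glioma libraries alone, and Mmp14 the MMP with the highest mean over the 6 libraries. Capitals mark AP-1 letters (TGAGTCA), the TATA box (TATAAA) and the GC box (GGGCGG), each on either strand, and adjacent GC boxes can run together.
Mmp13, chr9:7272264-7272563, plus strand: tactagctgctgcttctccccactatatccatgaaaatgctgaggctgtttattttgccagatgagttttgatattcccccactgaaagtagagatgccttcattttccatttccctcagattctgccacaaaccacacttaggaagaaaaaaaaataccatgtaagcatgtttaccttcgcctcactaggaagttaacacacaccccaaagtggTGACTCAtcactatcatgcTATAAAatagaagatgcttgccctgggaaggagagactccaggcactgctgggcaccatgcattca
Mmp12, chr9:7347124-7347423, plus strand: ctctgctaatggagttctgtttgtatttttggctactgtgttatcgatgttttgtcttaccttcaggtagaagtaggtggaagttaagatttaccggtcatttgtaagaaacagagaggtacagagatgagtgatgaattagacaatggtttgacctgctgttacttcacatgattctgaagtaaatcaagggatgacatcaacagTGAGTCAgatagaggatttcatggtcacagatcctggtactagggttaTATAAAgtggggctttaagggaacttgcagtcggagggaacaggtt
Timp1, chrX:20869916-20870215, plus strand: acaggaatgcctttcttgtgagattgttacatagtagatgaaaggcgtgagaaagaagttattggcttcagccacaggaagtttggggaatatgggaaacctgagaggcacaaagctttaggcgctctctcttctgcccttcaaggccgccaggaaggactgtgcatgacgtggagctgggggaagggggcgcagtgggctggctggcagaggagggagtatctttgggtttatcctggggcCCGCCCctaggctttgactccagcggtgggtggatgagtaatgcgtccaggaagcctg
Mmp14, chr14:54431348-54431647, plus strand: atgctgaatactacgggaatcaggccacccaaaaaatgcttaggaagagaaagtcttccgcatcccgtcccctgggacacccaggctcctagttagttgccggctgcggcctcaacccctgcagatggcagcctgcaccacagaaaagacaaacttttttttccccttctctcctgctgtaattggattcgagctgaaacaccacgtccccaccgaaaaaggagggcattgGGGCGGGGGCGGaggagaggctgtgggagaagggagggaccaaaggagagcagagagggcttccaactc
Mmp13 and Mmp12 each hold 1 AP-1 match and 1 TATA box and no GC box. A second window of Mmp12 holds none of the 3. Timp1 and Mmp14 hold 1 and 2 GC boxes and no exact match to the other motifs. Near its end the Timp1 window holds tgagtaa, 1 letter from TGAGTCA, which the exact search does not count. The counts over the families were as follows. Among genes that were tested and have a window, 16 of 19 held a GC box, 1 of 19 a TATA box and 1 of 19 AP-1 letters. Among genes listed at 0 in all libraries, 4 of 22 held a GC box, 10 of 22 a TATA box and 7 of 22 AP-1 letters. Of these, Mmp1a, Mmp1b, Mmp3, Mmp7 and Mmp10 hold both AP-1 letters and a TATA box. They belong to the chromosome 9 run, so they are not independent cases, and they are most of those with AP-1 letters. Over all windows, 35.9% held a GC box and 13.6% a TATA box, shares counted per window and not per gene. A match describes letters, not binding, and a missing match speaks only of the exact letters in this window.

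ADAM signal was concentrated in the sheddases of somatic cells, with Adam15 and Adam17 among the most abundant transcripts of the families. Adam15 encodes an endothelial ADAM that binds integrins (chromosome 3, 89338542 to 89349996). It stood at 13.39, 14.24 and 12.98 in glioma and at 14.04, 15.56 and 15.31 in normal replicates 1, 2 and 3. Of the glioma libraries, only replicate 2 exceeded a normal library, which was normal replicate 1. The means were 13.54 ± 0.64 and 14.97 ± 0.81 (SD, n = 3 each), a difference of -1.43 (SE 0.59, unadjusted p = 0.0406, limma adjusted p = 0.875). Without normal replicate 1 the groups did not overlap and the difference was -1.89 (SE 0.55, limma adjusted p = 0.399).

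Adam17, the sheddase of TNF and of EGF receptor ligands (chromosome 12, 21323509 to 21373632), was at 12.69, 12.69 and 13.05 in glioma libraries. In normal replicates 1, 2 and 3 it was at 12.73, 14.07 and 14.01. Normal replicate 1 lay among the glioma values, and the other normal libraries lay above them. The means were 12.81 ± 0.21 and 13.60 ± 0.76 (SD, n = 3 each), a difference of -0.80 (SE 0.50, limma adjusted p = 0.875), or -1.23 (SE 0.40, limma adjusted p = 0.422) without normal replicate 1. Adam10, the sheddase that starts Notch cleavage (chromosome 9, 70678997 to 70780229), was at 9.55, 11.50 and 11.19 in glioma and at 10.40, 10.56 and 10.64 in normal libraries. Its means of 10.75 ± 1.04 and 10.53 ± 0.12 (SD, n = 3 each) differed by 0.21 (SE 0.61, limma adjusted p = 0.953), and glioma replicate 1 lay below and the other glioma libraries above all normal libraries. Adam10 thus had another order of libraries than Adam15 and Adam17.

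Adam9, a further sheddase, was at 3.37, 8.09 and 8.70 in glioma and at 0, 5.80 and 7.50 in normal libraries, with glioma replicates 2 and 3 above every normal library. Adam8, known from leukocytes, was at 5.65 in glioma replicate 3 and at 0 in the other glioma libraries, against 0, 7.64 and 6.70 in normal libraries. Adam19 was above 0 in 4 libraries at 5.68 to 8.21, Adam28 in 3 at up to 5.91, Adam12 in glioma replicate 1 alone at 4.97, and Adam33 in none. The neural ADAMs without protease activity, Adam11, Adam22 and Adam23, were above 0 in glioma replicate 1 and in normal replicates 2 and 3, and Adam11 also in glioma replicate 3. Those first 3 libraries are the ones with at least 8 of 9 neuronal markers above 0. They are also the 3 with the most genes above 0, 11853 to 13108 against 7446 to 10954 elsewhere. Their lowest values above 0 were the smallest as well, at 0.22 to 2.84 against 3.82 to 7.43. Which of these the pattern follows was not tested. Adam11 was the highest of the 3, at 3.81, 0 and 7.04 in glioma and 0, 8.19 and 7.37 in normal libraries (limma adjusted p = 0.927). Summed over the family, the ADAM level was 1094, 1714 and 1167 ppm in glioma and 1492, 3976 and 3475 in normal replicates 1, 2 and 3. Normal replicate 1 lay within the glioma range here too.

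Among the ADAMTS genes, Adamts1 and Adamts10 were abundant in both groups, and Adamts9 was above 0 in 5 libraries. Adamts1, a versican-cutting protease with antiangiogenic activity (chromosome 16, 85793827 to 85803113), was at 9.88, 12.48 and 12.35 in glioma and at 11.65, 11.22 and 11.63 in normal libraries. Its means were 11.57 ± 1.47 and 11.50 ± 0.24 (SD, n = 3 each), a difference of 0.07 (SE 0.71, limma adjusted p = 0.99). Glioma replicate 1 was the lowest of all libraries and the other glioma libraries the highest, as for Adam10. Without glioma replicate 1 the difference was 0.91 (SE 0.39, unadjusted p = 0.0526, limma adjusted p = 0.775). Adamts10, which acts on fibrillin microfibrils, was at 11.34, 9.53 and 10.02 in glioma and at 9.39, 9.98 and 10.21 in normal libraries, a difference of 0.44 (SE 0.64, limma adjusted p = 0.898). Here glioma replicate 1 was the highest library.

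Adamts9, a versican-cutting protease (chromosome 6, 92772699 to 92943492), was at 5.38, 7.92 and 10.14 in glioma and at 0, 6.12 and 5.27 in normal libraries. Glioma replicates 2 and 3 exceeded every normal library, and glioma replicate 1 lay between normal replicates 2 and 3 (limma adjusted p = 0.875). Adamts13, which trims von Willebrand factor and is made mainly in liver stellate cells, stayed low at 2.22, 4.07 and 6.03 in glioma and 7.69, 3.92 and 1.42 in normal libraries. Its value exceeded at most 8.8% of the genes with signal in any library. Its means of 4.11 ± 1.90 and 4.34 ± 3.16 (SD, n = 3 each) differed by -0.23 (SE 2.59, limma adjusted p = 0.991). Adamts4, an aggrecanase, was at 4.01, 8.90 and 0 in glioma and 0, 5.22 and 3.35 in normal libraries. Adamts8, reported as antiangiogenic, was at 0, 6.31 and 7.57 in glioma and at 0 in all normal libraries, and was not tested because only 2 libraries had signal.

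The procollagen-processing enzymes Adamts2, Adamts3 and Adamts14 were never tested. Adamts2, Adamts6 and Adamts7 were each at 7.43 in normal replicate 1, the lowest value above 0 there, held by 256 genes. Of the ADAMTS-like genes, Adamtsl4, a microfibril-associated protein, was at 6.85, 7.91 and 0 in glioma and at 10.45, 8.0 and 7.72 in normal libraries (limma adjusted p = 0.875). Adamtsl1 was at 2.22, 0 and 7.84 in glioma and 0, 7.73 and 7.36 in normal libraries (limma adjusted p = 0.921). Adamtsl2 and Adamtsl5 were above 0 in 1 and 2 libraries, and Adamtsl3 in none.

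**Figure D5:**
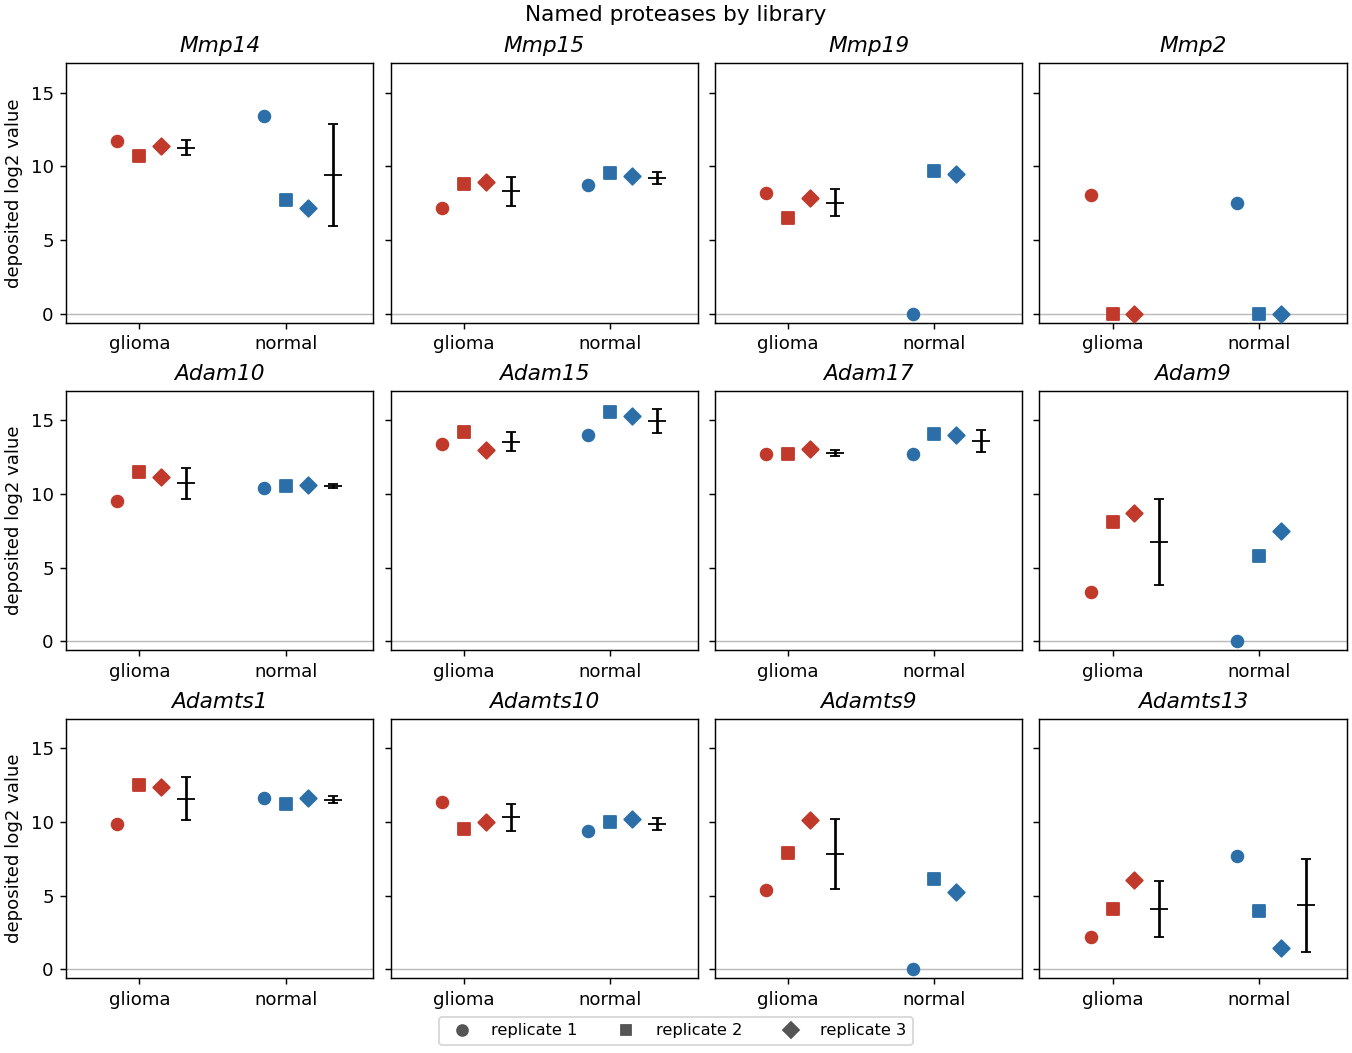
Deposited log2 value of 12 proteases by library (circles, squares and diamonds for replicates 1, 2 and 3; glioma red, normal blue), with black bars for mean and SD where all 3 libraries of a group are above 0. Normal replicate 1 is the highest Mmp14 point at 13.40 and is at 0 for Mmp19, Adam9 and Adamts9, while glioma replicate 1 is the lowest Adam10 and Adamts1 point.

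Genes that activate, anchor or restrain these enzymes were read from a list of 37, of which 29 were tested and 0 passed the threshold. Glioma libraries lay wholly above normal libraries for 4 of the 29 (13.8%, against 6.91% of all genes) and wholly below for 1 (3.45%, against 6.37%). The median difference was 0.92, against 0.05 over all genes, and 0.19 over the 13 with signal in each library, against -0.18 over all such genes. When normal replicate 1 was left out, 8 of the 29 lay above and 3 below, against 14.7% and 20.7% of all genes. Plaur, the urokinase receptor that gathers plasmin formation at the cell surface, was at 6.54, 8.32 and 9.70 in glioma and at 0, 5.27 and 5.74 in normal libraries. Another pair in this direction handles collagen rather than proteases.

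Pcolce, an enhancer of procollagen C-proteinase, was at 7.71, 7.08 and 7.70 in glioma and at 0 in all normal libraries. The limma adjusted p was 0.875, and 0.0475 with no trend in the variance prior. Pcolce passed the filter through glioma libraries alone, and normal values all at 0 have no spread, so the 0.0475 is not read as support. The 7.08 lay below 7.43, the lowest value above 0 in normal replicate 1, and the other glioma values lay just above it. Serpinh1, a collagen chaperone, was at 14.28, 14.60 and 14.67 in glioma and at 13.53, 13.58 and 13.69 in normal libraries, with means of 14.52 ± 0.21 and 13.60 ± 0.08 (SD, n = 3 each). Its difference was 0.92 (SE 0.43, limma adjusted p = 0.875). Bsg, also called EMMPRIN for its induction of MMPs and abundant in brain endothelium, was the member below, at 15.68, 15.95 and 16.05 in glioma and 16.77, 17.07 and 17.07 in normal libraries. It was the highest gene of the list, with a difference of -1.07 (SE 0.65, limma adjusted p = 0.875). Furin, the convertase that opens pro-MMP14 and many pro-ADAMs, had means of 12.13 ± 0.86 and 12.27 ± 0.34, and Tspan14, a tetraspanin partner of ADAM10, of 11.32 ± 0.50 and 11.56 ± 0.25 (SD, n = 3 each). The groups overlapped for both. Spock2, a matrix proteoglycan, and Tspan5, a tetraspanin partner of ADAM10, were at 11.87 ± 1.06 and 12.39 ± 0.85, and at 11.80 ± 1.43 and 11.60 ± 0.88 (SD, n = 3 each).

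Known ADAM and ADAMTS substrates, a list of 40 with 32 tested, had 0 past the threshold, 1 wholly above (3.12%) and 2 wholly below (6.25%), with a median difference of 0.05. Jag1, a Notch ligand shed by ADAMs, was the member above, at 9.78, 10.59 and 10.47 in glioma and 8.85, 9.72 and 9.76 in normal libraries. Il6ra, the interleukin-6 receptor that ADAM17 sheds, was at 0, 6.05 and 7.44 in glioma and at 9.08, 9.32 and 8.82 in normal libraries. Bcan, a brain proteoglycan cut by ADAMTS enzymes, was listed at 0 in all glioma libraries and at 8.79, 6.59 and 6.27 in normal libraries. Bcan passed the filter through normal libraries alone, so its order was fixed once it was tested. Jag1, Il6ra and Bcan were named after their values were seen. Without normal replicate 1 the counts were 7 above and 3 below, against 14.7% and 20.7% of all genes.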

How the data were processed

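The 6 libraries were analysed, 3 per group, grouped by sample title. Per the labels' protocols, RNA in Trizol was made into Lexogen QuantSeq libraries. The authors named Bowtie2, edgeR and mm10, per the submitters' processing notes, without role or version. For the counter, the annotation and any use of strand, the answer is not given in the sources used here. The authors deposited log2 values for 24421 symbols per library. From the values, these appear to be log2(x + 1) of quantile-normalized data, a step no source states: back-transformed, they were whole multiples of 1/6 within a tolerance of 0.02, and the highest value was 20.85 in each. Depth is therefore unknown.

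Each gene was modelled with limma (version 3.58.1, under R version 4.3.3; mean trend, group as the only term, 4 residual degrees of freedom), keeping genes that reach 1 after back-transformation in 3 or more libraries, and checked on simulated data. Differences are glioma minus normal. Benjamini-Hochberg adjustment ran over all 11862 genes with a threshold of 0.05. A difference understates low genes that are above 0 in both groups and is widened by values at 0. Summed levels are parts in 1000000 (ppm) of a library's back-transformed total. Alternatives were other filters, a common floor, a pseudocount of 16, no trend, a replicate block and leaving out each library. Genes were named by rule: all TIMPs, tested members without overlap, the 5 highest of each family, the 3 largest differences either way among those above 0 throughout, and 7 anchors; others were chosen after their values were seen. Members and lists (regulators, substrates, and markers of endothelium and 10 other cell classes) were chosen with earlier results of these data known. Positions and overlaps come from GENCODE M21, where 84 of 84 symbols matched, and promoters from RefSeq. Some items are not reported here.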

Additional observations from a re-analysis of the deposited data

How the results depend on the processing

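No gene of the families passed the threshold under any of the alternatives run, and the lowest adjusted p of a named gene was 0.227. Over all genes, 0 passed in each fit except that without a variance trend, which called 15, none of them in these families. Counts of genes with glioma libraries wholly above or below the normal libraries moved. Leaving out each library in turn gave 1 to 7 above and 1 to 7 below, and among regulators 4 to 8 above and 1 to 3 below, and among substrates 2 to 7 above and 2 to 5 below. The count above was 0 both over genes with signal in each of the 6 libraries and after raising low values to a common floor of 7.43, since Timp1 then dropped out or tied. Regulators above numbered 1 among genes with signal in each library and 2 at the common floor, and substrates below numbered 0 and 1. The ADAMTSL median, which rests on 2 genes, was -1.23 with no filter and -0.55 at the common floor. Other family medians turned sign: with each library left out in turn the MMP median ranged from -1.10 to 1.19 and the ADAMTS median from -0.39 to 0.71, while ADAM ranged from -1.89 to -0.07, ADAMTSL from -3.57 to -2.25 and TIMP from 1.16 to 2.85. The MMP median was -0.93 at the common floor and among genes with signal in each library, and -0.07 with a pseudocount of 16, and the ADAM median was 0.06 at the common floor.

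The sign of 9 of the 21 named genes with a test turned under at least 1 alternative, none past the threshold. With each library left out in turn, the difference ranged from -0.16 to 0.81 for Adam10, from -4.17 to 0.23 for Adam11, from -0.39 to 0.91 for Adamts1, from -0.09 to 0.82 for Adamts10, from -1.70 to 1.44 for Adamts13, from -0.85 to 3.60 for Adamts4, from -4.19 to 0.00 for Adamtsl1, from -2.05 to 2.79 for Mmp19 and from -2.11 to 2.00 for Mmp25. At the common floor Adamtsl1 was at 0.04 and Mmp19 at -1.02, with a pseudocount of 16 Mmp19 was at -0.09, and with normal replicates 2 and 3 averaged as 1 sample, a choice made after seeing the data, Mmp25 was at 0.99. The cause of these turns was not tested. With the same averaging the difference was 0.83 for Mmp14, 0.92 for Timp2, -1.20 for Adam15 and -0.58 for Adam17. Sequencing depth is unknown, so how far it limits a gene listed at 0 cannot be given. A replicate block left 0 genes and 0 family members past the threshold. The numbers are not shown to pair the libraries: deviations of same-numbered libraries correlated at 0.13, 0.03 and 0.06, and each number is only a name.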
